A study of Mus musculus with 4 samples.

Results

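The proteasome subunit genes described here are the 48 genes of the deposited count table whose symbol is Psm followed by one of the letters a to g and a number, of 53801 genes listed. The rule uses the name alone and no measured value. Their RNA was measured by sequencing in osteoclast precursor cells, a stage of the monocyte lineage from which the multinucleated cells that resorb bone are formed. The mice were wild type, of strain C57BL/6. Cells of 2 mice, precursor cells 1 and precursor cells 2, each received PBS or 200 ng/ml of DKK1, in both cases for 3 h. DKK1 (Dickkopf-1) is a secreted inhibitor of Wnt signalling and PBS is the saline control, so the design holds 4 libraries in 2 pairs. The labels give no sex, age, culture method or sorting step, and bulk RNA of this kind cannot tell fewer cells of a type from less RNA per cell.

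The proteasome degrades proteins that carry ubiquitin chains. Its barrel-shaped core is built from outer rings of alpha subunits (Psma) and inner rings of beta subunits (Psmb), of which Psmb5, Psmb6 and Psmb7 carry the standard proteolytic sites. In haematopoietic cells and under interferon these are exchanged for Psmb8, Psmb9 and Psmb10 (Psmb8 takes the place of Psmb5, Psmb9 of Psmb6 and Psmb10 of Psmb7), which gives the immunoproteasome, a form known for cutting peptides for MHC class I. The regulatory particle at the ends of the core holds a ring of ATPases (Psmc) that unfold the substrate, and non-ATPase subunits (Psmd) that bind and remove ubiquitin. Activators (Psme) are alternative caps, Psmf1 (PI31) was first described as an inhibitor, and Psmg1 to Psmg4 are chaperones that assemble the core. In osteoclast precursors the proteasome is known for degrading the NF-kB inhibitor downstream of RANK.

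By this naming the set held 8 alpha ring genes, 11 beta ring genes, 6 ATPases, 14 non-ATPases, 4 activators, 1 inhibitor and 4 assembly chaperones. Libraries held from 41163663 to 53537927 counts. Of the 48 genes, 47 passed edgeR's filter on low counts, among 17462 tested. The exception was Psmb11, the catalytic subunit of the thymus, which had no count in any library. Monocyte and macrophage markers were abundant, with Lyz2 between 14288 and 24909 and Csf1r between 1969 and 2593 CPM (counts scaled to library size, here by TMM). The osteoclast precursor marker Tnfrsf11a (RANK) stood at 200, 198, 197 and 204 CPM. These are PBS then DKK1 of precursor cells 1, then PBS and DKK1 of precursor cells 2, the order of all such series below. The late osteoclast gene Calcr had no count in any library.

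Sequences at the starts of some catalytic and activator genes are shown first. They were picked with the difference between the preparations known, and whether they bear on it was not tested. Psmb8 lies on chromosome 17 from 34197721 to 34201454 and Psmb9 on the same chromosome from 34181987 to 34187764, in the MHC region (GRCm38, GENCODE M21). The RefSeq starts of Psmb9 and of the peptide transporter gene Tap1, which is read in the opposite direction, are separated by 225 bases. These bases are written 5′ to 3′ on the strand of Psmb9 (RefSeq, GRCm38.p6, chr17:34187331-34187555), with the reverse complement of a CCAAT box in capitals:
Psmb9: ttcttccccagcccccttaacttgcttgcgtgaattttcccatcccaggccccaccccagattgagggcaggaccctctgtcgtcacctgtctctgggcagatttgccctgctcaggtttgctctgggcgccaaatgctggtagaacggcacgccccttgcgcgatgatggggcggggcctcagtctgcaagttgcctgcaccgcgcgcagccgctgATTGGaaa
The RefSeq starts of Psmb9 and Psmb8 lie inside the GENCODE spans given above. The 120 bases before the RefSeq start of Psmb8 (plus strand, chr17:34198075-34198194) hold the letters TTCNNNGAA of a gamma-activated sequence, an element of interferon-responsive promoters, from 97 to 89 bases before that start and in capitals here:
Psmb8: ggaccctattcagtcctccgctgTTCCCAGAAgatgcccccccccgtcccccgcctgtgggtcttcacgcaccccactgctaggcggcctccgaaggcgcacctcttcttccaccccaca
Psme1 is an activator gene on chromosome 14 from 55578123 to 55581529 by GENCODE, and its RefSeq start also lies inside that span. The gene has the reverse complement of GAAANN directly followed by GAAA, the core of an interferon response element, from 9 to 18 bases after its RefSeq start (plus strand, chr14:55578493-55578522):
Psme1: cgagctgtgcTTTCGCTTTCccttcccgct
The standard catalytic genes Psmb5 (minus strand, chr14:54617996-54618055) and Psmb6 (plus strand, chr11:70525297-70525356) each have TGACNNNGC, the core of an antioxidant response element, within the 60 bases before the RefSeq start:
Psmb5: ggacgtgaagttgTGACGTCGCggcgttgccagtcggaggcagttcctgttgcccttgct
Psmb6: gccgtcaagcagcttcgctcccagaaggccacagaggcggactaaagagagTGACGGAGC

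These letters were searched on both strands in RefSeq windows from 250 bases before to 50 after each start, which were found for 40 of the 48 genes (43 windows, of 32851 for all genes). Psmb7 had no window, so its start was not searched. GAAANN directly followed by GAAA was in 11.6% of the windows of the subunit genes (Psmb3, Psmd4, Psmd9, Psme1 and Psmg4) and in 3.44% of all windows. TTCNNNGAA was in 6.98% (Psmb8, Psmd2 and Psmg1) against 8.3% of all windows. TGACNNNGC was in 14% (Psmb5, Psmb6, Psmc6, Psmd9, Psmd12 and Psme4) against 12.4%, and CCAAT in 32.6% against 37.4%. Among the windows of Psmb8, Psmb9, Psmb10, Psme1 and Psme2, both interferon-related motifs had a match in 1 gene each. No match of one motif overlapped a match of another. A match is a run of letters and not a measured binding site. In the comparisons below, 4 of the 5 genes with the interferon response element core (all but Psme1) did not pass the test in either. Of all genes tested, only 0.0515% passed with DKK1 and 33.9% between the preparations, so that number is no result about the motif.

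Levels between genes were compared per length, first on the FPKM scale of the authors' deposited tables (counts scaled to gene length and library size). Psma6, an alpha ring subunit, had the highest mean over the 4 libraries, 121 FPKM, followed by Psmb1 at 106.0 and Psmb5 at 94.6 FPKM. At the other end were Psma8, the alpha subunit of the testis, at 1.07 FPKM, Psmd9, a chaperone of the ATPase ring, at 2.78 FPKM, and Psmf1 at 4.3 FPKM. The 14 standard subunits of the core lay between 14.8 (Psma3) and 121 FPKM with a median of 44.7 FPKM, an 8.21-fold range. The regulatory particle without the chaperones Psmd5, Psmd9 and Psmd10 lay between 12.9 (Psmd11) and 79.3 FPKM (Psmc1), with a median of 31.0 FPKM. Assembly chaperones were lower, from 4.45 (Psmg3) to 21.5 FPKM (Psmg4). The ranking depends on the gene length used: on CPM per kilobase of the principal GENCODE M21 transcript, Psmb6 was highest, at 235, and Psma6 had rank 4, at 158. That scale was chosen after seeing the data. Psma8 was lowest of the 47 genes with counts on both scales.

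**Figure D1:**
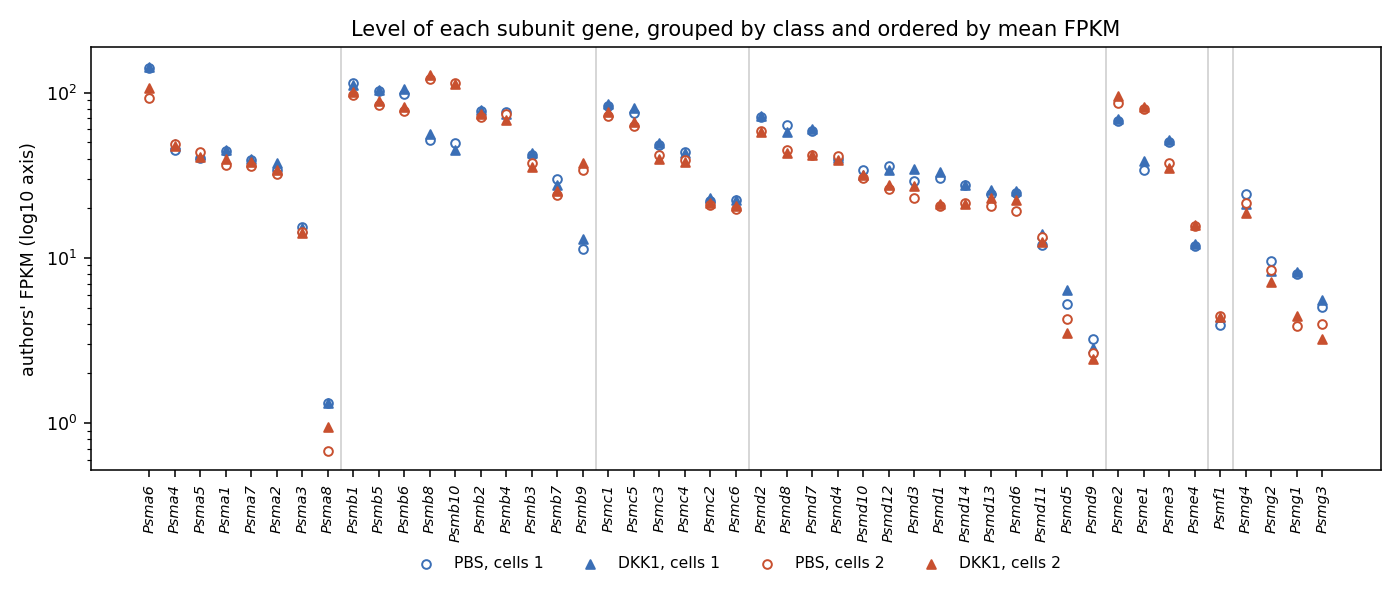
Level of the 47 subunit genes with counts, one column per gene, on a log10 axis of the authors' FPKM; circles are PBS and triangles DKK1 libraries, blue precursor cells 1 and orange precursor cells 2, and grey lines part the classes (alpha ring, beta ring, ATPases, non-ATPases, activators, inhibitor, assembly). Most genes have their 4 points close together, while Psmb8, Psmb9, Psmb10 and Psme1 are visibly higher in both libraries of precursor cells 2.

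The first comparison asked whether proteasome subunit genes change when osteoclast precursors meet DKK1. None of the 47 tested genes passed (edgeR quasi-likelihood with the preparation as a block, adjusted over all genes), where 0.0515% of all genes tested, 9 genes, did. DESeq2 and limma-voom also called 0 of them. Psmd3 was the 1 member with an unadjusted p under 0.05 by edgeR, against 4.47% of all genes. The median change was 0.02 on the log2 scale (all genes tested -0.001). The 47 estimates lay between -0.23 (Psmg2) and 0.23 (Psmd3), all within 0.25 of no change, as were 12377 of all 17462 genes tested. Some 95% intervals reached further, such as -0.61 to 0.94 for Psma8. In 21 genes DKK1 was higher in both pairs (25.6% of all genes were) and in 8 lower in both (26.1% of all genes), with opposite signs in the other 18 (47.6% of all genes). In 6 of the 47 the signs were opposite and the 95% counting intervals of both pairs left out 0 (9.44% of all genes).

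Psmd3, a lid subunit of the regulatory particle, stood at 151, 179, 136 and 158 CPM. Each DKK1 library was above its own PBS partner, though the treatments overlap across the preparations. The log2 change was 0.23 (95% CI 0.09 to 0.37, n = 2 pairs, edgeR adjusted p = 0.929), with 0.24 in precursor cells 1 and 0.22 in precursor cells 2. In the authors' deposited tables, which compare 1 library with 1, Psmd3 had log2 ratios of 0.24 (FDR 0.00404) and 0.22 (FDR 0.0141). Those tables marked no member as changed in either pair. In the authors' deposited tables an FDR under 0.05 was reached by 3 members in precursor cells 1 (Psmd3, Psmd5 and Psmd11, all higher) and by 5 in precursor cells 2 (Psma6, Psmd3 and Psmd6 higher, Psmd5 and Psmg3 lower). Psmd5 thus had opposite signs.

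Within the core, no catalytic gene differed beyond the error of the fit. Psmb9 had the largest value, a log2 change of 0.16 (95% CI -0.005 to 0.33), followed by Psmb8 at 0.10 (-0.03 to 0.23), while Psmb10 was at -0.09 (-0.24 to 0.07). The standard subunits Psmb5, Psmb6 and Psmb7 were at 0.05 (-0.12 to 0.21), 0.08 (-0.06 to 0.22) and -0.03 (-0.21 to 0.15). The 8 alpha ring genes had a median of 0.05, with 6 estimates above 0. Among them were Psma6 at 0.11, Psma2 at 0.10, Psma3 at -0.02 and Psma5 at -0.02. Psmb4, a structural beta subunit, was at -0.09.

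In the regulatory particle the 6 ATPases lay between -0.04 (Psmc4) and 0.10 (Psmc5), with Psmc1 at 0.07 and Psmc3 at -0.02. The 14 non-ATPases had a median of 0.01. Beside Psmd3 these include the lid subunit Psmd13 at 0.12, Psmd8 at -0.10 and the chaperone Psmd9 at -0.16. The activators Psme1, Psme2, Psme3 and Psme4 stood at 0.10, 0.08, -0.04 and 0.02, and Psmf1 at 0.07. Of the assembly chaperones, Psmg2 was at -0.23 and Psmg4 at -0.20, each lower in both pairs, Psmg3 at -0.06 and Psmg1 at 0.09. These 4 genes have low counts and wide intervals, such as -0.59 to 0.13 for Psmg2. Pomp, the maturation factor of the core, had a change of 0.10 (edgeR adjusted p = 0.959).

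**Figure D2:**
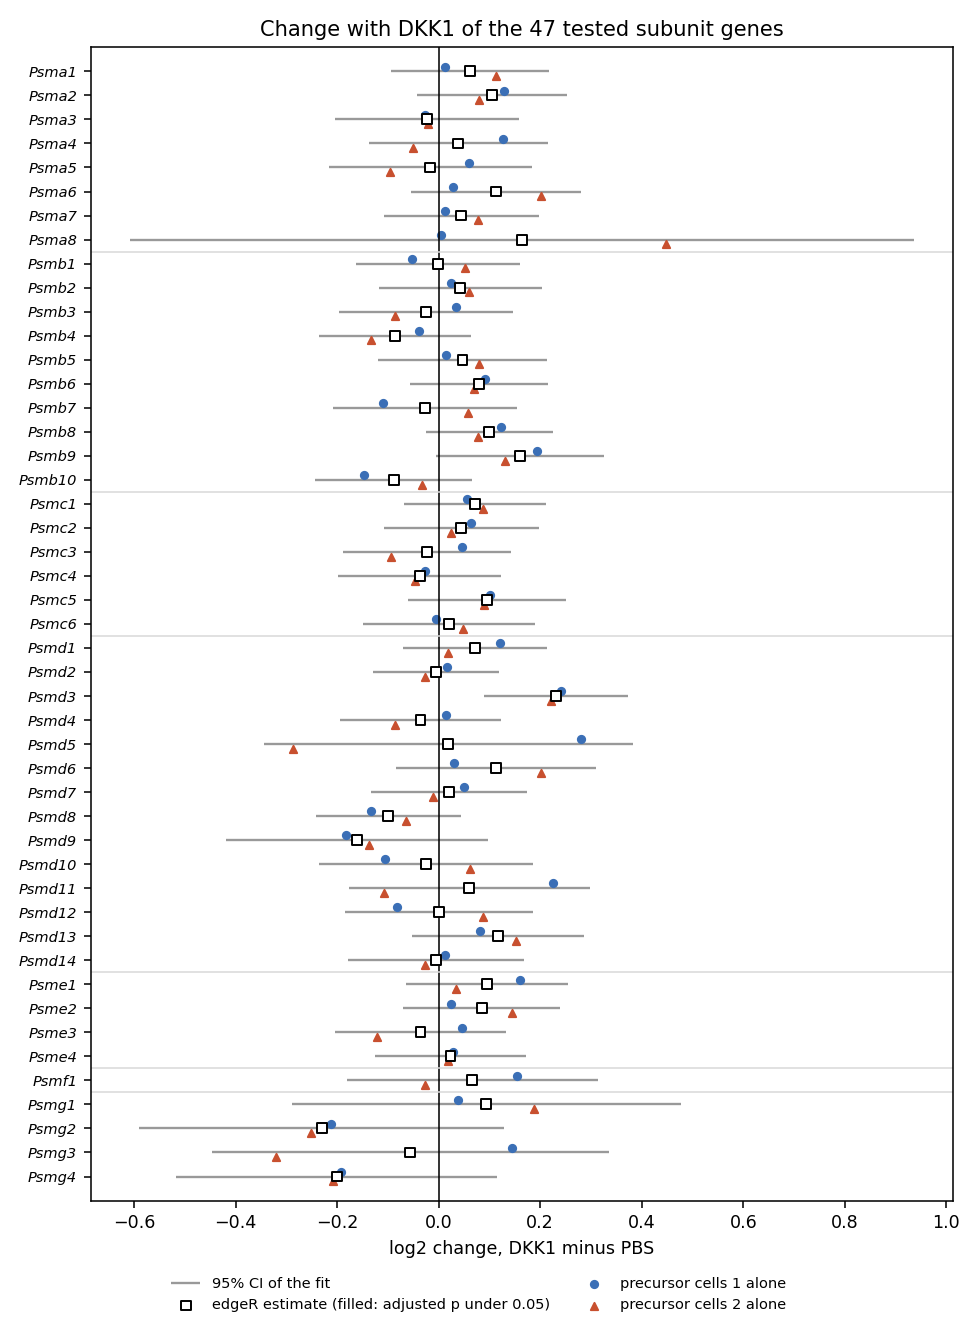
Change with DKK1 of the 47 tested genes on a log2 axis; open squares are edgeR estimates with their 95% confidence intervals as grey lines, blue circles the change in precursor cells 1 and orange triangles that in precursor cells 2. No square is filled, since no gene had an adjusted p under 0.05, and the estimates lie between -0.23 and 0.23.

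The same model also compared precursor cells 2 with precursor cells 1, each a single mouse, so its p-values speak of these preparations and not of mice in general. The immunoproteasome catalytic genes and the activator Psme1 were 2.5 to 3.3 times higher in precursor cells 2, while Psmb5 and Psmb7 did not differ beyond error. Of 47 genes, 13 passed (33.9% of all genes tested did), 6 of them higher (17.9% of all genes) and 7 lower (15.9% of all genes). By number alone these calls are no result about the set, since the background is as large; the sizes by class are given next. The median over the 47 was -0.03 and over all genes tested -0.003.

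Psmb9, the immunoproteasome subunit that takes the place of Psmb6, stood at 43.4, 49.7, 147 and 160 CPM. Both libraries of precursor cells 2 were far above both of precursor cells 1. The log2 difference was 1.72 (95% CI 1.55 to 1.89, 3.30-fold, edgeR adjusted p = 2.80e-05). Psmb10, on chromosome 8 from 105935735 to 105938444, stood at 88.5, 79.9, 231 and 226 CPM. Its preparations did not overlap either, and the log2 difference was 1.44 (1.28 to 1.60, 2.71-fold, edgeR adjusted p = 4.45e-05). Psmb8, the subunit with chymotrypsin-like activity, stood at 148, 161, 389 and 410 CPM, a log2 difference of 1.37 (1.24 to 1.5, 2.58-fold, edgeR adjusted p = 2.38e-05). The 3 differences lay between 1.37 and 1.72, with no overlap between the preparations for any of these genes. Both libraries of precursor cells 2 were above both of precursor cells 1 in 33.7% of all genes tested, and below them in 35.3%.

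Of their standard counterparts, 1 was called and 2 were not. Psmb5, with 95.9, 97.0, 88.9 and 94.0 CPM, had a log2 difference of -0.08 (-0.24 to 0.09, edgeR adjusted p = 0.430). For Psmb7, at 107, 99.1, 97.4 and 101 CPM, it was -0.05 (-0.23 to 0.13, edgeR adjusted p = 0.647). Psmb6 stood at 194, 206, 171 and 179 CPM, lower in both libraries of precursor cells 2, and fell by 0.19 on the log2 scale (edgeR adjusted p = 0.0426). That call is lost by DESeq2 (adjusted p = 0.115), without a filter on low counts (0.0695) and without the treatment term (0.0524). Psmb5 was called lower when counts of near-identical gene models were added to it (log2 -0.36, edgeR adjusted p = 0.00890). Its own model holds 87.5% of that sum over all libraries, and the cause of the shift was not tested.

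**Figure D3:**
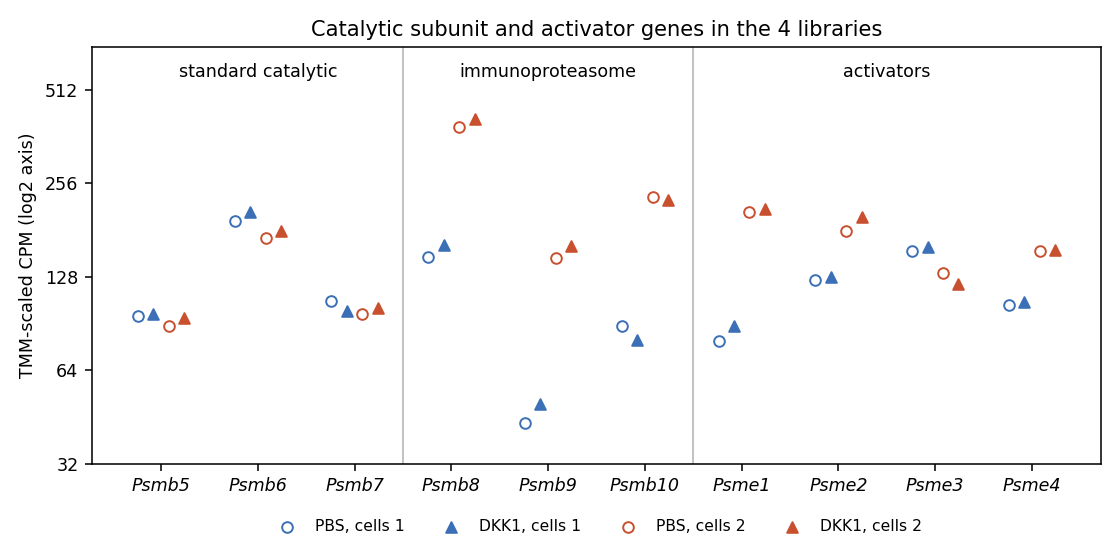
TMM-scaled CPM, on a log2 axis, of the standard catalytic, immunoproteasome catalytic and activator genes in each library; circles are PBS and triangles DKK1, blue precursor cells 1 and orange precursor cells 2. Psmb8, Psmb9, Psmb10 and Psme1 part most widely by preparation. Psmb5, Psmb6, Psme2, Psme3 and Psme4 also part without overlap, and only Psmb7 overlaps. Of all genes tested, 33.7% had both libraries of precursor cells 2 above both of precursor cells 1, and 35.3% below. In every gene shown, PBS and DKK1 of one preparation lie close together.

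Activators split in direction. Psme1 and Psme2 encode the subunits of the interferon-inducible PA28 cap. Psme1 stood at 79.4, 88.7, 207 and 212 CPM, a log2 difference of 1.32 (1.16 to 1.48, 2.5-fold, edgeR adjusted p = 6.68e-05). Psme2, its partner on chromosome 14 from 55587441 to 55591113, stood at 125, 127, 180 and 199 CPM, a difference of 0.58 (0.43 to 0.74, 1.5-fold, edgeR adjusted p = 0.00133). Psme2 has a near-identical copy, Psme2b, and held 70.5% of the counts of both. With the counts of both summed, the difference was 0.60 (edgeR adjusted p = 0.000653). Psme4 (PA200), at 104, 106, 154 and 156 CPM, was higher by 0.57 (0.42 to 0.72, edgeR adjusted p = 0.00130). Psme3, the nuclear PA28 gamma, went the other way at 155, 160, 131 and 121 CPM and fell by 0.32 (edgeR adjusted p = 0.0170), a call lost without the filter on low counts (adjusted p = 0.0583).

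The remaining calls were all toward lower values in precursor cells 2. Psmg1, an assembly chaperone, stood at 11.3, 11.6, 6.16 and 7.02 CPM and fell by 0.80 on the log2 scale (95% CI -1.19 to -0.41, edgeR adjusted p = 0.0129). Its partner in the same dimer, Psmg2, was at -0.03, and Psmg3 and Psmg4 were at -0.38 and -0.005, none of them called. Psmd1, the scaffold subunit at the base of the regulatory particle, stood at 231, 251, 178 and 180 CPM and fell by 0.43 (edgeR adjusted p = 0.00312). The lid subunits Psmd7 and Psmd8 fell by 0.33 and 0.29 (edgeR adjusted p = 0.0104 and 0.0137). Psma6 stood at 182, 185, 135 and 155 CPM and fell by 0.35 (edgeR adjusted p = 0.0122, but 0.0528 without the filter on low counts).

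Among the rest of the core and the regulatory particle, none of the 6 ATPases was called, and their estimates lay between -0.09 (Psmc5) and 0.08 (Psmc2), with Psmc3 at -0.08 and Psmc6 at 0.02. The highest uncalled values in the alpha ring were 0.21 for Psma5 and 0.20 for Psma4, and the lowest was -0.53 for Psma8, which rests on 1.37 to 2.36 CPM. Psmd4, a ubiquitin receptor, was at 0.19 (edgeR adjusted p = 0.0721, and 0.0485 with a stricter filter), and Psmd11 at 0.17. Psmf1 was at 0.25 (edgeR adjusted p = 0.105). Over the 42 tested genes other than Psmb8, Psmb9, Psmb10, Psme1 and Psme2 the median was -0.05, with 1 gene (Psme4) called higher and 7 lower. With a library left out, the same 6 genes were called higher in each of the 4 fits, while calls lower numbered 5 without PBS and 4 without DKK1 of precursor cells 1, and 2 without PBS and 3 without DKK1 of precursor cells 2.

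**Figure D4:**
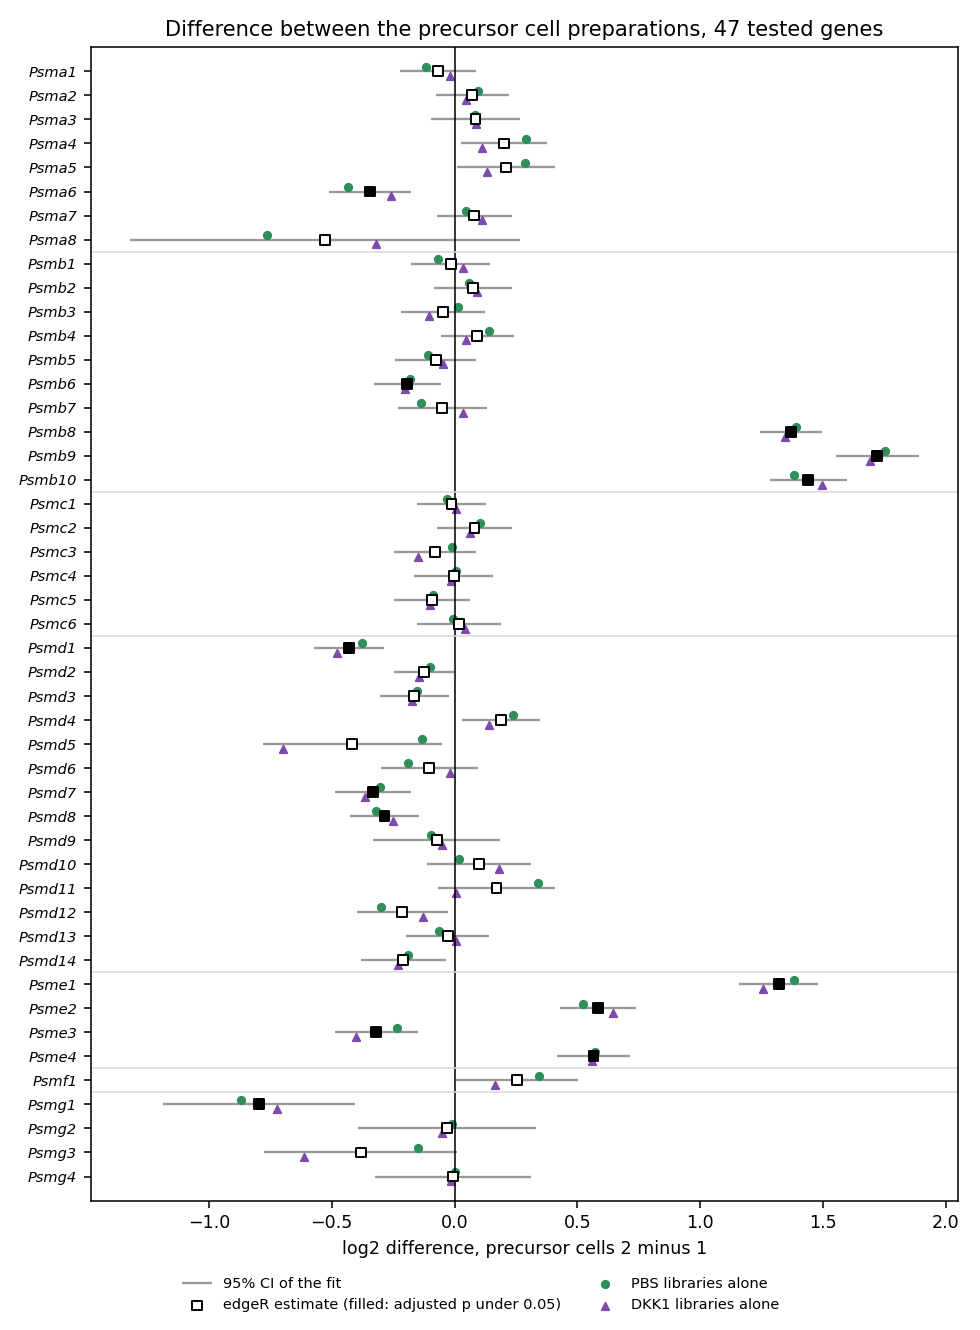
Difference between precursor cells 2 and 1 of the 47 tested genes on a log2 axis, grouped by class; squares are edgeR estimates with 95% confidence intervals as grey lines, filled where the adjusted p was under 0.05, and coloured points show the PBS and the DKK1 libraries alone. Psmb8, Psmb9, Psmb10 and Psme1 lie beyond 1, and the 7 filled squares to the left of 0 lie between -0.80 and -0.19.

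Set against each other within a library, the immunoproteasome genes took larger shares in precursor cells 2. On the FPKM scale Psmb8 made up 33.7% and 35.3% of the sum of Psmb8 and Psmb5 in precursor cells 1 (PBS, then DKK1). In precursor cells 2 it made up 59.0% and 58.9%. Psmb9 made up 10.3% and 11.0% of Psmb9 plus Psmb6, then 30.5% and 31.4%. For Psmb10 with Psmb7 the shares were 62.4% and 61.8%, then 82.6% and 81.7%. These shares depend on the lengths assumed for the genes. Per kilobase of principal transcript they were 46.0%, 47.9%, 70.7% and 70.7% for Psmb8, 11.7%, 12.4%, 33.6% and 34.6% for Psmb9, and 42.3%, 41.6%, 67.7% and 66.3% for Psmb10. Which of Psmb10 and Psmb7 was the more abundant in precursor cells 1 thus differed between the scales, and Psmb9 stayed below Psmb6 in every library on both.

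The mean log2 ratio of the 3 pairs, which keeps its differences whatever length is used, was -1.12 with PBS and -1.07 with DKK1 in precursor cells 1, against 0.53 and 0.52 in precursor cells 2. The preparations differed by 1.62 (1.65 in PBS and 1.58 in DKK1 libraries, 3.07-fold). An exact two-sided permutation test over the 4 libraries gave p = 0.333, the smallest it can give. DKK1 minus PBS was 0.02 ± 0.05 (SD, n = 2 pairs), 0.06 for precursor cells 1 and -0.01 for the other pair, with an exact two-sided permutation p = 1 where 0.5 is the smallest possible. By mean FPKM within a preparation, Psmb8 went from rank 13 to 1, Psmb10 from 16 to 2, Psme1 from 24 to 7 and Psmb9 from 39 to 25. Unlike the differences of the ratio, these ranks depend on gene length. Per kilobase of principal transcript they went from 14 to 1, 26 to 5, 22 to 4 and 36 to 12.

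**Figure D5:**
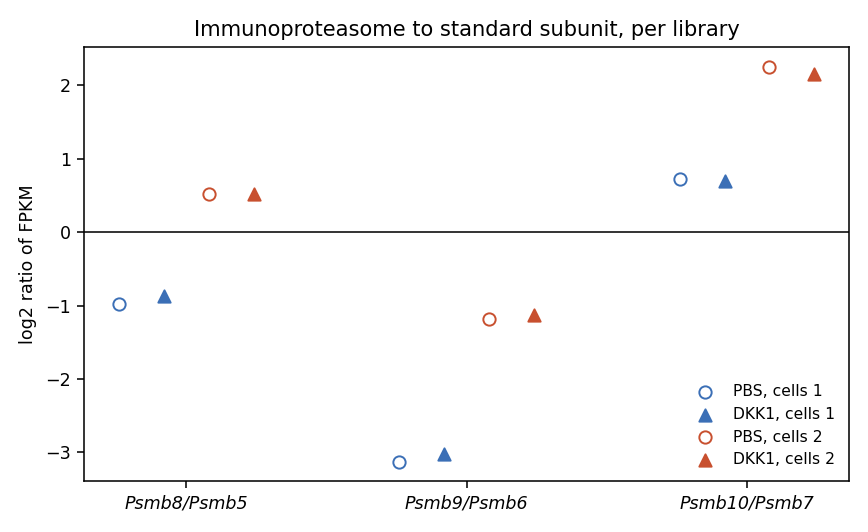
Log2 ratio of FPKM of each immunoproteasome gene to its standard counterpart in the 4 libraries; circles are PBS and triangles DKK1, blue precursor cells 1 and orange precursor cells 2, and the line at 0 marks equal FPKM. Psmb8/Psmb5 lies at -0.98 and -0.87 in precursor cells 1 and at 0.52 in both libraries of precursor cells 2, and all 3 ratios are higher in precursor cells 2.

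Other genes of these pathways were followed in lists. With DKK1 no gene of these lists had an edgeR adjusted p under 0.05, and 2 interferon-stimulated genes and 1 gene of the list for proteasome gene transcription had an unadjusted p under 0.05. Between the preparations, where 17.9% of all genes were called higher and 15.9% lower, 9 of 12 class I antigen processing genes were called higher and 2 lower in precursor cells 2, with a median log2 difference of 1.43. Tap1, the peptide transporter gene that shares its upstream bases with Psmb9, stood at 61.5, 71.6, 415 and 412 CPM (log2 2.64). The MHC class I heavy chain gene H2-K1 differed by 1.93, the transporter's partner Tapbp by 1.58 and the light chain gene B2m by 1.28. Psmb9 shares 212 of its exon bases with Tap1 on the other strand. The strandedness of the libraries is not given in the sources used here, so reads in those bases cannot be assigned to either gene. Of 13 genes for interferon signalling, 9 were called higher and none lower, among them Stat2 (2.52), Irf7 (1.74) and Irf2 (1.05). All 26 interferon-stimulated genes, a list with Irf7 in common, were called higher with a median of 2.59, led by Cxcl10 (3.41), Mx1 (3.74), Cmpk2 (3.54) and Rsad2 (3.56).

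Of 16 partner genes that serve the proteasome outside the Psm names, none was called higher in precursor cells 2 and 8 were called lower (median -0.26). They include the deubiquitinase Usp14 (-0.64), the ubiquitin shuttles Ubqln2 (-0.63) and Rad23b (-0.37), and the protease Ddi2 (-0.55). Pomp stood at 80.6, 83.2, 87.1 and 96.6 CPM, a log2 difference of 0.16 (edgeR adjusted p = 0.128). Of 9 genes for the transcription of proteasome genes, 2 were called lower (Ddi2 again and Nfyc at -0.32) and none higher, a share near the background. In the list for ubiquitin supply and activation, 2 of 9 genes were called higher, among them Ubb (0.59), and 4 were called lower, among them Rps27a (-1.42). The members of these lists were chosen with earlier results of these data known.

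Markers of cell types were compared between the preparations as well, where 17.9% of all genes tested were called higher and 15.9% lower. Calls in the T and NK cell list and in the stromal list were near these shares. Neutrophil markers, led by Ngp and S100a9, summed to 5354 and 5214 CPM in precursor cells 1 and to 9731 and 9852 in precursor cells 2, with 9 of 10 called higher. Dendritic cell markers, led by Cd74 and Bst2, summed to 1183 and 1068, then 4102 and 3973 CPM, with 5 of 10 called higher and 3 lower. Their median log2 difference was 0.38, less than the rise of the sum. Summed plasma cell markers went from 373 and 358 to 958 and 947 CPM (7 of 8 called higher, with Jchain at 2.99, 2.27, 504 and 512 CPM), and B cell markers from 331 and 252 to 173 and 174 CPM (10 of 12 called lower, 1 higher). For monocyte and macrophage markers the sums were 34100 and 33965, then 29255 and 29725 CPM, with 6 of 13 gene models called higher and 3 lower. The sum fell while the median log2 difference was 0.37, with 10 of the 13 estimates above 0. Osteoclast precursor markers summed to 3206 and 3080, then 3656 and 3599 CPM (4 of 9 higher, 2 lower). Erythroid markers summed to 104 and 73.7, then 160 and 125 CPM (5 of 6 higher, Car1 at 0 throughout), and T and NK cell markers to 35.6 and 34.2, then 49.0 and 46.6 CPM (1 of 9 higher, 1 lower). Stromal and osteoblast markers stood between 62.2 and 116 CPM in sum, with 2 of 9 called higher and 1 lower. With DKK1 no marker of these lists was called. An unadjusted edgeR p under 0.05 was reached by 6 of 12 B cell markers and 4 of 6 erythroid markers, against 4.47% of all genes. Their median log2 changes were -0.39 and -0.42, with 3 and 1 estimates above 0. The other marker lists held 0 to 3 such genes each. The part of these cell types in the values of the subunit genes, between preparations or with DKK1, was not tested.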

How the data were processed

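The authors' deposited count table gives whole-number counts per gene and library. Per the submitters' processing notes, fastp, the aligner HISAT2 and the build mm10 (GRCm38) were used; the counting program, annotation and strand were not given in the sources used here. The FPKM values were made by the authors, with gene lengths that are not stated and that the counts show to be the same in every library (ratios within 1.1). The authors' deposited tables also hold, per the file headers, a log2 ratio and p-values with FDR for 1 library against 1, by a test not stated.

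The main model was edgeR 4.0.16 in R 4.3.3 (quasi-likelihood, TMM, filterByExpr, not robust, legacy off) on the counts of all 53801 genes, with terms for preparation and treatment and 1 residual degree of freedom. The p-values were adjusted by Benjamini-Hochberg over 17462 tested genes, with a threshold of 0.05. Pairing follows the number in the sample titles, taken as the mouse. Libraries of the same number deviated together from their treatment's mean (correlation across genes 0.726). Principal component 1 held 76.1% of the variance. Differences within a pair are log2 CPM with a prior count of 2. The mean ratio was tested by exact permutation in SciPy 1.17.1. Near-identical models came from BLAST 2.17.0 (95% identity or more, spanning 100 bases and 50% of the shorter of both transcripts). Alternatives used DESeq2 1.42.0, limma 3.58.1, other scalings and filters, and each library left out.

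The gene set (its name rule) and the lists were proposed with earlier results of these data known. Genes named are the catalytic, activator, inhibitor and assembly genes and Pomp. In each class these are joined by the 2 smallest p-values per direction and comparison, called genes with a log2 of at least 1, and the extremes of mean FPKM. Each pathway list adds up to 4 called genes and each marker list its 2 most abundant genes; Tnfrsf11a, Calcr, Car1 and the subunit genes named only for a motif, a sign or a length-dependent rank were chosen after their values were seen. Some genes under this rule have no printed value.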

Additional observations from a re-analysis of the deposited data

Results flagged for a closer look

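In 6 of 47 subunit genes the change with DKK1 went one way in precursor cells 1 and the other way in precursor cells 2, and in both pairs the 95% counting interval of the change left out 0; the interval covers counting error only. The same held for 9.44% of all genes tested, and signs alone were opposite in 47.6%, so the number of such genes is no result about the subunits. The log2 changes, precursor cells 1 first, were 0.28 and -0.29 for Psmd5, a chaperone of the ATPase ring, 0.14 and -0.32 for Psmg3, an assembly chaperone, and 0.23 and -0.11 for the lid subunit Psmd11. Smaller opposite changes were 0.0455 and -0.121 for Psme3, 0.0465 and -0.0948 for the ATPase Psmc3, and -0.0813 and 0.0878 for Psmd12. Each value is 1 library against 1, and the difference between the preparations was not tested.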

How the results depend on the processing

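With DKK1, 0 members were called under each alternative run; with no replicate block, 0 were called and 0 had an unadjusted p under 0.05, and leaving out each library in turn also gave 0. These 5 fits and the fit without a filter on low counts called no gene at all, so they say nothing about the stability of the members' result. The count between the preparations was 13, from 10 (no filter on low counts, median of all genes -0.045) to 17 (upper-quartile scaling, median of all genes -0.054) with all libraries, and 8 to 11 with 1 left out, 8 being without PBS of precursor cells 2; the same 6 were higher in each, joined by Psmd4 with the stricter filter. Each library left out gave fits without the other factor. Of the gene values, signs reversed for uncalled genes near 0: Psma5 with DKK1 (0.0022 with near-identical models summed), Psmc6 between preparations (-0.032 with upper-quartile scaling, -0.0086 without a filter) and Psmg4 (0.0037 by DESeq2); the cause was not tested. The mean ratio of immunoproteasome to standard subunits was 1.45 in place of 1.62 as the median of the 3 pairs, and lay between 1.58 and 1.65 with a library left out; its DKK1 value lay between -0.01 and 0.06. Psmg1 to Psmg4 and Psma8 had the fewest counts of the tested members.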
